A study of Mus musculus with 20 samples.

Results

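The Ccl3/Ccl4-high neutrophils described here were 543 of 10885 cells sorted as tumor-associated macrophages (TAM) from mice with 4T1.2 breast cancer, and 543 of the 3539 cells with a neutrophil transcriptome in those libraries (15.34%, exact 95% binomial interval 14.17 to 16.57%, counting error only). They were chosen by counts of 13 genes in each cell. A neutrophil-like cell had at least 300 corrected counts of S100a8 and S100a9 together (the subunits of calprotectin, the main cytosolic protein of neutrophils), at least 1 of Csf3r (the G-CSF receptor), at most 1 of Csf1r (the M-CSF receptor), at most 5 of C1qa (complement C1q, made by macrophages) and under 20 of Ngp, Camp and Ltf together (granule proteins made by immature neutrophils). A Ccl3/Ccl4-high neutrophil was such a cell with under 5 counts of the interferon-stimulated genes Ifit1, Isg15 and Rsad2 together and at least 10 counts of Ccl3 and Ccl4 together. The successive criteria left 5030, 4640, 3947, 3698, 3539, 1657 and finally 543 cells.

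The study asked whether B-cell precursors give rise to macrophages in cancer, and compared such cells (B-MF) with macrophages made from monocytes (Mo-MF). The tumor cells came from 4 samples, which the labels call macrophages isolated from tumor samples. Per the study, the TAM were purified by flow cytometry and the mice were young females. Its methods describe 4T1.2 cells injected under the skin of BALB/cJ mice, and other passages call the 4T1.2 tumors orthotopic. The site used for these libraries is not stated. The study defines TAM by CD11b and the antigen that Adgre1 codes for, and does not state whether that gate was the one used for these libraries. The cells were in 4 libraries, numbered 2 to 5 in the deposited table and numbered otherwise in the labels, so that a library cannot be tied to 1 sample. All values are unique molecule counts that the authors corrected to a common depth, and a level is the mean corrected count per cell of a library. All differences are on the log2(level + 0.1) scale with their SE, and a gene is called higher or lower where limma's Benjamini-Hochberg adjusted p across all genes tested, with library as a block, was below 0.05.

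Ccl3 and Ccl4 (MIP-1 alpha and MIP-1 beta) are CC chemokines that draw monocytes, T cells and NK cells. Their genes lie close together on chromosome 11, Ccl3 at chr11:83647844-83649355 on the minus strand and Ccl4 at chr11:83662584-83664683 on the plus strand (GRCm38). Neutrophils leave the bone marrow nearly mature, and make inflammatory chemokines when they are activated in tissue through NF-kB, the transcription factor behind many cytokine genes.

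The members made up 15.68%, 17.95%, 14.15% and 13.75% of the neutrophil-like cells of libraries 2, 3, 4 and 5, with 119, 165, 108 and 151 cells. In the same order they were 3.742%, 7.118%, 4.525% and 5.033% of all cells of the library. The sum of Ccl3 and Ccl4 in a member ran from the threshold of 10 to 502 counts with a median of 33, and the library medians were 37, 33, 29.5 and 37. Counts of both chemokines were present in 351 members (64.64%), Ccl3 alone in 131 and Ccl4 alone in 61. Ccl3 made up 59.84%, 49.92%, 52.23% and 51.44% of the sum in the 4 libraries. The mean level of Ccl3 was 28.95 ± 5.17 (SD, n = 4 libraries) in members and 1.076 ± 0.0974 in the neutrophil-like cells that were interferon-low with under 10 Ccl3 and Ccl4 counts, called Ccl3/Ccl4-low cells below (1114 cells). For Ccl4 these levels were 25.47 ± 5.963 and 0.670 ± 0.0695. Of the other genes of the rule, S100a8 was at 506.3 ± 48.17 in members and 647.5 ± 47.46 in Ccl3/Ccl4-low cells, S100a9 at 597.4 ± 38.43 and 775.2 ± 28.12, and Csf3r at 5.554 ± 0.490 and 7.106 ± 0.197 (SD, n = 4 libraries, no test). All these values are of genes that chose the cells. Of the interferon-low neutrophil-like cells, 32.77% reached 10 counts, and of the 1882 interferon-high ones 39.53% did, a higher share in 4 of 4 libraries (38.76 and 40.49%, 31.19 and 34.62%, 30.68 and 46.23%, 32.2 and 37.52%). The 56 cells just outside the chemokine threshold, with 8 or 9 counts, had a mean Cxcl2 of 133.9, Hcar2 of 8.43, Il1a of 0.446 and Ly6g of 0.786, and the 34 cells just inside, with 10 or 11, had 136.6, 10.4, 1.29 and 1.03. At the interferon threshold, the 108 Ccl3/Ccl4-high cells just outside, with 5 or 6 interferon counts, had a mean Cxcl2 of 232 and Il1a of 1.69, and the 126 just inside, with 3 or 4, had 258.4 and 3.54.

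**Figure D1:**
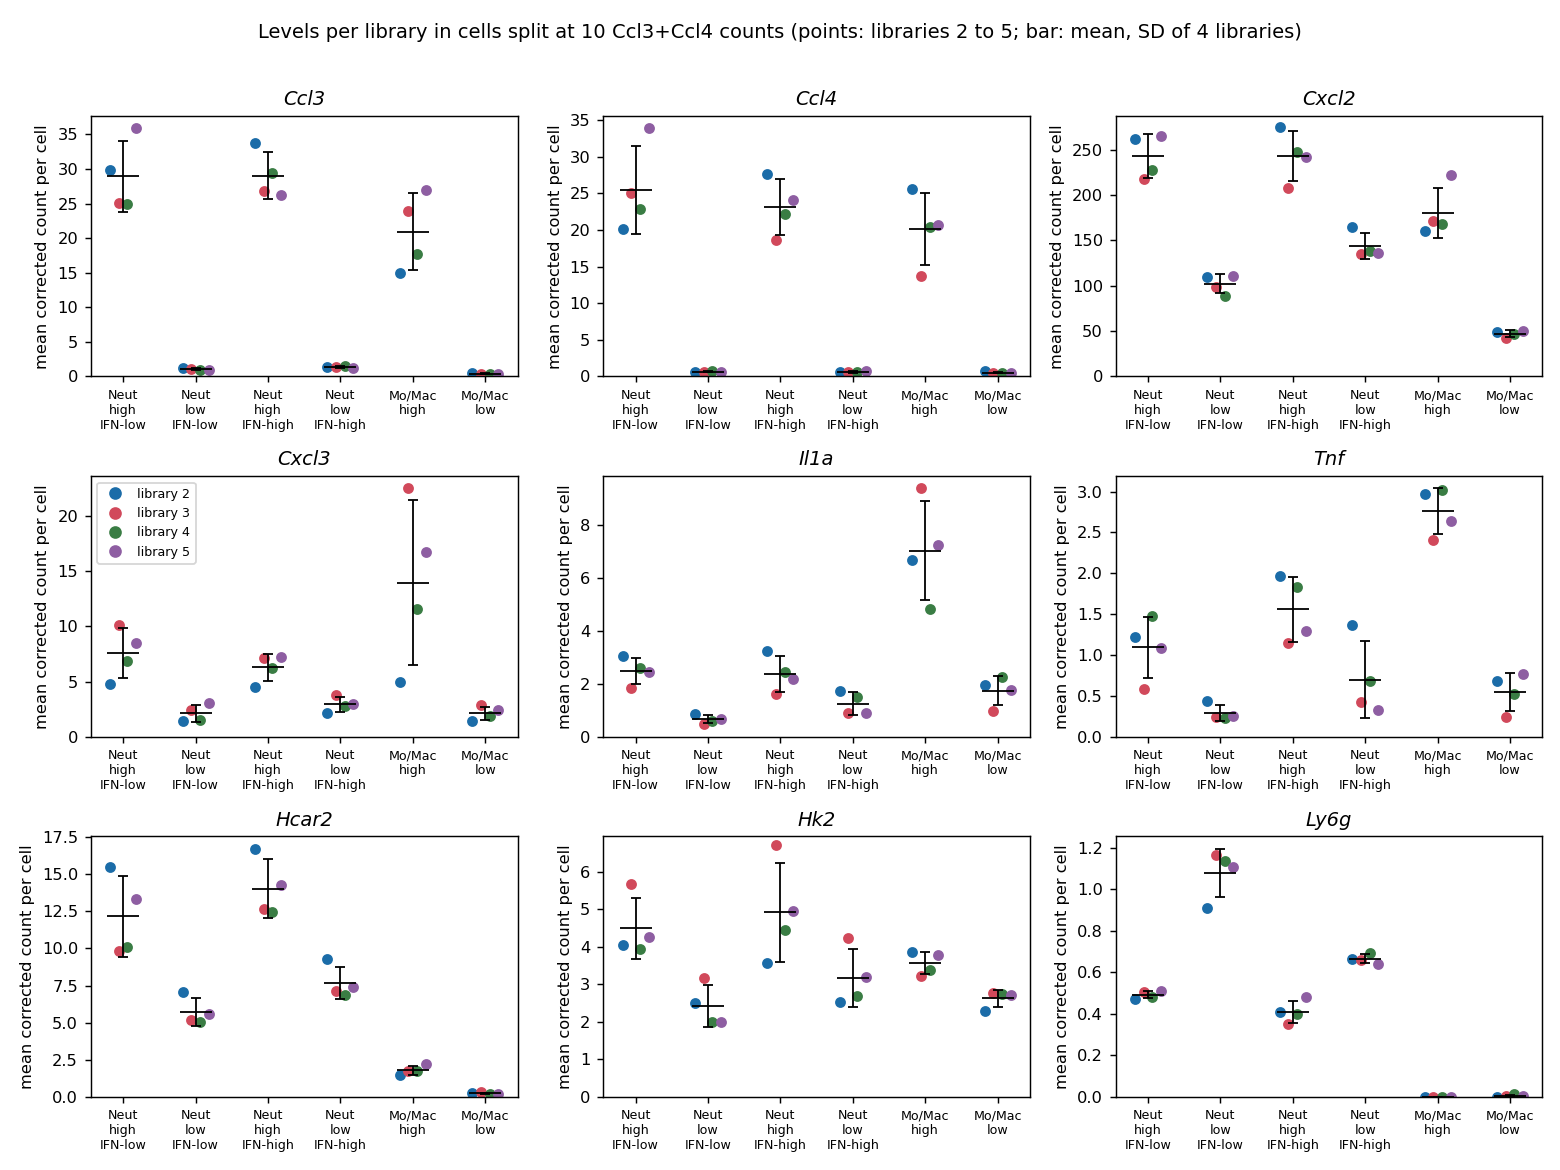
Levels of 9 genes in 6 cell populations split at 10 Ccl3 and Ccl4 counts; the vertical axes give the mean corrected count per cell, each point is 1 of libraries 2 to 5, and the bar is their mean with the SD. The members stand first (Neut high IFN-low), and their Cxcl2 lies between 217 and 265 in the 4 libraries against 89.0 to 111 in the Ccl3/Ccl4-low interferon-low cells beside them.

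The cells had the transcriptome of mature neutrophils. Retnlg, a secreted protein of mature mouse neutrophils, had levels of 59.1, 60.1, 49.5 and 57.2 in libraries 2 to 5, against 0.357 to 0.643 in Ccl3/Ccl4-low monocyte/macrophage-like cells. Monocyte/macrophage-like cells had at least 2 Csf1r counts, no Csf3r and under 300 counts of S100a8 and S100a9, and the Ccl3/Ccl4-low ones had under 10 Ccl3 and Ccl4 counts. Elane and Ctsg, which code for proteases made by promyelocytes, had no count in any member (0 of 543 cells, which allows a share of cells with a count of up to 0.552% and sets no limit on cells that express them), and Mpo was at 0 in 3 of 4 libraries and 0.00662 in library 5. Of 16 immature neutrophil genes listed, Lcn2 and Cd177 did have a level to test against the other neutrophil-like cells. The rule's limit on Ngp, Camp and Ltf removes granule-rich cells, so low levels of immature genes are partly set by the choice. Adgre1, which codes for a surface antigen of macrophages, had levels of 0.0252, 0.0788, 0.0278 and 0.0662, below the 0.430 to 0.583 of Ccl3/Ccl4-low monocyte/macrophage-like cells in every library. In Ccl3/Ccl4-high monocyte/macrophage-like cells it was at 0.408, 0.0588, 0.459 and 0.238, the library 3 value, from 17 cells, lying below that of the members. Of the macrophage markers, Csf1r is a gene of the rule and of the choice of those cells, and C1qb and C1qc belong to the complex of the rule's C1qa. A set of 7 others (Apoe, Adgre1, Mrc1, Ms4a7, Cd68, Trem2 and Pf4) summed to 6.824, 5.915, 5.306 and 4.755 in members and to 50.82, 25.82, 41.56 and 32.81 in Ccl3/Ccl4-high monocyte/macrophage-like cells. Both sets of cells were chosen by Csf1r, Csf3r, S100a8 and S100a9 in opposite directions, so part of this separation was set by the choice. The Retnlg levels and these sums thus only describe cells that the labels call macrophages. Of the other genes named for this population, Hcar2 (the receptor of niacin and beta-hydroxybutyrate), Ciart (a repressor of the circadian clock) and Klf2 (a transcription factor that restrains myeloid activation) were above the other neutrophil-like cells in 4 of 4 libraries. Hcar2 levels were 15.5, 9.81, 10.1 and 13.3 against 10.8, 7.17, 7.79 and 8.50. Ciart levels were 0.504, 0.806, 0.509 and 0.510 against 0.323, 0.473, 0.270 and 0.299. The Ciart difference of 0.63 became 0.27 where cells needed 600 counts of S100a8 and S100a9. Klf2 levels were 13.4, 18.3, 9.25 and 14.5 against 10.4, 14.2, 8.11 and 9.52. Ddit3 (CHOP, a stress transcription factor) was above the others in libraries 2, 4 and 5 but not in library 3, where the levels were 1.79 and 1.80. Egr1 (an early growth response factor) was above them in libraries 3, 4 and 5 but not in library 2, where the levels were 6.78 and 7.03. Compared with Ccl3/Ccl4-low cells, Ddit3 and Egr1 were higher in 4 of 4 libraries, with differences of 0.54 and 0.43. These 6 genes were chosen from these data, so they carry no test and stay out of the counts of gene lists.

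Cxcl1, Cxcl2 and Cxcl3, which attract neutrophils through CXCR2, were higher in members than in the other 2996 neutrophil-like cells. Of 4418 genes tested in that comparison, 291 (6.59%) were higher and 289 (6.54%) lower in members, with a median difference over all genes of -0.01, and 4 of 7 CXC chemokines tested were higher. The lower genes include 21 of 23 interferon-stimulated genes tested. Those calls were set by the choice, since 1882 of the others failed the interferon criterion. Against the Ccl3/Ccl4-low cells, which pass the same interferon criterion, 545 (12.2%) of 4461 genes were higher and 495 (11.1%) lower with a median of -0.02, and again 4 of 7 CXC chemokines were higher. The comparisons share the members and part of the other cells. Cxcl2 was by far the most abundant, with levels of 262, 217, 228 and 265 in members of libraries 2 to 5, against 180, 130, 152 and 154 in the other neutrophil-like cells and 110, 98.9, 89.0 and 111 in the Ccl3/Ccl4-low cells. No member level overlapped either set. The differences were 0.66 ± 0.047 (adjusted p = 3.38e-08) and 1.25 ± 0.050 (adjusted p = 1.17e-14). Cxcl3 levels were 4.79, 10.1, 6.87 and 8.50 in members and 2.63, 3.71, 3.33 and 4.07 in the others, with differences of 1.08 ± 0.076 (adjusted p = 3.38e-08) from the others and 1.80 ± 0.086 from the Ccl3/Ccl4-low cells (adjusted p = 2.66e-13). Cxcl1 levels were 2.07, 1.87, 1.16 and 1.06 in members and 1.20, 0.759, 0.878 and 0.729 in the others, which overlap between libraries but were higher in members within 4 of 4. Its differences were 0.70 ± 0.11 (adjusted p = 2.10e-04) and 1.56 ± 0.12 (adjusted p = 1.01e-09). Cxcl10, an interferon-induced ligand of CXCR3, was at -1.62 ± 0.19 against the others, which hold the interferon-high cells that the rule removed from the members. With no interferon criterion the difference was -0.25 (adjusted p = 0.212), and against the interferon-low Ccl3/Ccl4-low cells it was -0.50 ± 0.17 (adjusted p = 0.0360), with 0.517 in members and 0.437 in Ccl3/Ccl4-low cells of library 5. Of the other CC chemokines, 1 of 7 tested was higher and 1 lower than in the others, and 3 of 6 were higher and 0 lower than in Ccl3/Ccl4-low cells, namely Ccl6, Ccl24 and Ccl2. Ccl6 was higher by both (0.53 ± 0.11 and 0.43 ± 0.097), with 7.80, 5.43, 4.19 and 3.53 in members and 3.46, 3.82, 3.43 and 3.08 in the others. Ccl24 (eotaxin 2) had 1.16, 0.679, 0.194 and 0.139 in members, 0.580, 0.234, 0.0779 and 0.0912 in Ccl3/Ccl4-low cells (0.79 ± 0.15, adjusted p = 2.94e-04) and 0.292, 0.285, 0.255 and 0.222 in the others (0.50 ± 0.24, adjusted p = 0.197), above the last in libraries 2 and 3 only. Ccl2 (MCP-1), named after its values were seen, differed by 0.56 ± 0.13 (adjusted p = 2.61e-03) and by -0.21 ± 0.15 (adjusted p = 0.411). Ccl5 was lower than in the other neutrophil-like cells (-0.94 ± 0.23, adjusted p = 8.13e-03), a call that was lost without library 3 (adjusted p = 0.0720), and its difference was 0.43 with the threshold at 5 counts of Ccl3 and Ccl4. With no interferon criterion the Ccl5 difference was 0.037 (adjusted p = 0.92).

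The promoter sequences of these chemokine genes are shown because the genes were high in the same cells, and that of Nfkbia because its window also held the NF-kB letters. Each is the 250 bases before the transcription start in RefSeq (GRCm38.p6), 5′ to 3′ on the gene's strand. Capitals mark every match to a strict form of the NF-kB site, GGGAATTTCC with any base at the fifth position. In Cxcl3 they also mark the E-box CACGTG and the TATA box TATAAA. Both strands were searched.
Ccl3, chr11:83649379-83649628, minus strand: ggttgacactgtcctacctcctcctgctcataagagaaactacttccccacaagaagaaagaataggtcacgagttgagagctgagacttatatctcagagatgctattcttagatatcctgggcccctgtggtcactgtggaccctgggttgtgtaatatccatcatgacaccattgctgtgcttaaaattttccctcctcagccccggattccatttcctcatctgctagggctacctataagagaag
Cxcl1, chr5:90890995-90891244, plus strand: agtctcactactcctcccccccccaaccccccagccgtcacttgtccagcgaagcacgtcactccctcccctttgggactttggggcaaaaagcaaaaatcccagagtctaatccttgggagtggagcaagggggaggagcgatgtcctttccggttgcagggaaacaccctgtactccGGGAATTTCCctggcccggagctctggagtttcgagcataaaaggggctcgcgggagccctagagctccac
Cxcl2, chr5:90903649-90903898, plus strand: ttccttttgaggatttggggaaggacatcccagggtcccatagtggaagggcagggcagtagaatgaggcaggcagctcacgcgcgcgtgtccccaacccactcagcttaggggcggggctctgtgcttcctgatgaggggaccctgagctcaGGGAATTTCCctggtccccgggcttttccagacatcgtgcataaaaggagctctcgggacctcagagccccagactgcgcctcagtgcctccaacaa
Cxcl3, chr5:90785851-90786100, plus strand: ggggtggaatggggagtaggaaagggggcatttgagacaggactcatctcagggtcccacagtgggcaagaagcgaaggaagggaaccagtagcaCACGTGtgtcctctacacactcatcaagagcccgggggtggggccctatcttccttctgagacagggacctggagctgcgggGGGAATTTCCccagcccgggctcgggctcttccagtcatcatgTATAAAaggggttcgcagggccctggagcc
Nfkbia, chr12:55492648-55492897, minus strand: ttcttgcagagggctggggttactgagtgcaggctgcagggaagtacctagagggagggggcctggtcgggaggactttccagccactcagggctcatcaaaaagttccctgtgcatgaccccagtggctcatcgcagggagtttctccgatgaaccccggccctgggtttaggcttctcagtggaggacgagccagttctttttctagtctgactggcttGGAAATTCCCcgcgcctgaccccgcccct
The windows of Cxcl1, Cxcl2 and Cxcl3 each held the same 10 letters, GGGAATTTCC, from -71 to -62, from -97 to -88 and from -73 to -64 relative to the start. The Nfkbia window held them in the other orientation, GGAAATTCCC, from -29 to -20. Such letters were in 117 of 32536 mouse promoter windows of this length (0.36%). The windows of Il1a, Tnf, Inhba and Tnfaip3, which were also searched and are not printed, held no match to these strict letters. Other forms of the NF-kB site were not searched, so their absence is not shown. The Ccl3 window held no match to the letters searched, and a window for Ccl4 was not used here. Of the genes with a window, 6 of 435 higher in members than in Ccl3/Ccl4-low cells (1.38%) held the NF-kB letters, namely Anxa4, Csf1, Cxcl1, Cxcl2, Cxcl3 and Nfkbia, against 4 of 389 lower genes (1.03%) and 17 of 3543 genes tested (0.48%). The NF-kB letters were thus almost as frequent among the lower genes as among the higher ones, by counts of 4 and 6.

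Cytokines formed the next group. For this list and those below, the shares over all genes tested were 6.59% higher and 6.54% lower against the others. Against Ccl3/Ccl4-low cells they were 12.2% and 11.1%. Of 13 cytokines and growth factors tested, 8 were higher and 0 lower in members than in the other neutrophil-like cells, and 9 were higher and 0 lower than in Ccl3/Ccl4-low cells, where the median was 0.71. Il1a, the alarmin interleukin 1 alpha, had levels of 3.03, 1.83, 2.61 and 2.46 in members and 0.856, 0.478, 0.607 and 0.670 in Ccl3/Ccl4-low cells, with no overlap. The differences were 0.89 ± 0.082 from the others (adjusted p = 6.01e-07) and 1.78 ± 0.087 from the Ccl3/Ccl4-low cells (adjusted p = 3.16e-13). Il1rn, the natural antagonist of the interleukin 1 receptor, was higher in the same cells, with 8.81, 6.24, 8.28 and 8.77 against 3.70, 2.55, 2.78 and 3.08 in Ccl3/Ccl4-low cells (1.38 ± 0.069, adjusted p = 3.88e-13). Il1b, by contrast, did not differ detectably from the other neutrophil-like cells (-0.05 ± 0.058, adjusted p = 0.683), and was higher than in Ccl3/Ccl4-low cells by 0.21 ± 0.057 (adjusted p = 7.26e-03), with levels of 68.0 to 73.0 in members. Il23a, the p19 subunit of interleukin 23, was scarce, with 0.840, 0.327, 0.518 and 0.483 in members and 0.122, 0.0467, 0.0287 and 0.0755 in Ccl3/Ccl4-low cells, and its difference from the other neutrophil-like cells of 1.13 ± 0.13 was the largest positive one among the genes called in both comparisons with 1 sign in every library (adjusted p = 8.08e-06, and 0.87 with adjusted p = 0.0857 where cells needed 600 counts of S100a8 and S100a9). Inhba, which codes for the activin A subunit, had 1.45, 1.06, 0.880 and 0.583 against 0.122, 0.253, 0.496 and 0.195 (1.61 ± 0.20, adjusted p = 1.17e-06). Ereg (epiregulin, an EGF receptor ligand) was higher than in the others by 0.56 ± 0.17 (adjusted p = 0.0286), but rested on library 5, without which the difference was 0.27 (adjusted p = 0.266).

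Tnf, Csf1, Vegfa and Spp1 are named after their values were seen. Tnf, tumor necrosis factor, had 1.22, 0.588, 1.48 and 1.09 in members, 1.26, 0.463, 0.841 and 0.542 in the other neutrophil-like cells and 0.431, 0.234, 0.225 and 0.255 in Ccl3/Ccl4-low cells. It stood above the Ccl3/Ccl4-low cells in every library (1.59 ± 0.15, adjusted p = 1.62e-08) and above all the others in 3 of 4 (0.47 ± 0.12, adjusted p = 0.0132, and 0.0662 without library 4, 0.0892 without library 5 or 0.164 without cells that had a marker of another cell type). With the threshold at 5 counts of Ccl3 and Ccl4 the last difference was 0.16 (adjusted p = 0.442), and with cells thinned to 4000 corrected counts 0.31 (adjusted p = 0.0871). Csf1, the gene of M-CSF, had 2.63, 3.16, 2.79 and 2.92 against 1.43, 1.42, 1.23 and 1.55 in Ccl3/Ccl4-low cells (0.98 ± 0.080, adjusted p = 2.12e-09). Against all the others its difference was 0.24 ± 0.067 (adjusted p = 0.0209, and 0.133 without library 3, 0.0801 without library 5 or 0.109 without cells that had such a marker). Spp1 (osteopontin) and Vegfa (the angiogenic factor) were higher than in Ccl3/Ccl4-low cells by 0.71 ± 0.11 and 0.58 ± 0.10, and than in the others by 0.53 ± 0.092 and 0.34 ± 0.093, the last with adjusted p = 0.148 without library 2 and 0.117 without library 3.

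The NF-kB list held subunits, inhibitors and targets of the factor. Of 17 tested, 6 were higher and 0 lower than in the others, and 8 higher and 1 lower than in Ccl3/Ccl4-low cells (median 0.26). Nfkbia, the inhibitor that NF-kB itself induces, had levels of 42.9, 31.7, 32.8 and 37.4 in members and 25.2, 17.1, 17.3 and 18.9 in Ccl3/Ccl4-low cells (0.89 ± 0.054, adjusted p = 1.74e-11). Tnfaip3, the deubiquitinase A20, had 2.47, 1.70, 1.74 and 1.99 against 1.0, 0.882, 0.684 and 0.837 (1.12 ± 0.089, adjusted p = 1.55e-09). Both groups were apart in every library. Nfkbid and Tnip1 were called higher than in the others (0.38 ± 0.097 and 0.39 ± 0.12), but lost the call without library 3 (adjusted p = 0.0833 and 0.0820) or without library 5 (0.0502 and 0.0933), Tnip1 also without library 2 (0.148), library 4 (0.0502) or cells with a marker of another cell type (0.149). For the subunit genes Nfkb1, Nfkb2, Rel, Rela and Relb, picked after their values were seen, the differences from Ccl3/Ccl4-low cells ran from -0.22 to 0.12, with none called. A difference between inhibitors and subunits was not tested.

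Immediate-early genes were mixed. Of 26 tested, 6 were higher and 2 lower than in the other neutrophil-like cells, and 8 were higher and 2 lower than in Ccl3/Ccl4-low cells, with a median of 0.02. Over all genes, 6.59% were higher and 6.54% lower than in the others, and 12.2% and 11.1% than in Ccl3/Ccl4-low cells. The counts of lower genes were near or below those shares. Jun, an AP-1 subunit, was higher (0.57 ± 0.078 and 0.82 ± 0.080), with 8.73, 11.1, 6.25 and 8.35 in members and 4.60, 8.43, 3.33 and 3.89 in Ccl3/Ccl4-low cells. Klf6, a transcription factor of activated myeloid cells, had 9.61, 9.53, 8.21 and 9.56 against 6.41, 6.96, 5.08 and 5.99 (0.59 ± 0.062). Of the genes the study names for B-MF in the tumor, Ier3, an early stress gene, was higher by both comparisons (0.47 ± 0.057 and 0.70 ± 0.059). Slc40a1, the iron exporter, and Ier2, a further early gene, were not called by either, with -0.05 ± 0.089 and -0.05 ± 0.071 from the other neutrophil-like cells.

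Stress and secretory genes were divided. Of 14 genes of the integrated stress response, which slows translation through eIF2 alpha, 6 were higher and 1 lower than in the others and 8 higher and 2 lower than in Ccl3/Ccl4-low cells (median 0.32). Ppp1r15a, the phosphatase subunit that ends that response, had levels of 5.30, 5.25, 3.81 and 5.33 in members and 2.85, 3.51, 2.62 and 2.71 in Ccl3/Ccl4-low cells (0.73 ± 0.076, adjusted p = 1.28e-07). Gadd45a, a growth arrest gene, and Sars, the seryl-tRNA synthetase, were higher by 0.57 ± 0.075 and 0.63 ± 0.11. Of 13 genes of endoplasmic reticulum (ER) chaperones and XBP1 targets, 7 were higher and 0 lower in either comparison, with a median of 0.42 against Ccl3/Ccl4-low cells. Manf, a secreted ER protein induced by unfolded protein, had 0.647, 0.727, 0.648 and 0.530 in members and 0.293, 0.269, 0.291 and 0.318 in Ccl3/Ccl4-low cells (0.91 ± 0.12, adjusted p = 6.33e-06). Hsp90b1, the ER chaperone GRP94, had 0.966, 1.35, 1.36 and 1.11 against 0.745, 0.777, 0.705 and 0.698 (0.63 ± 0.10). Canx and Pdia6, a lectin chaperone and a disulfide isomerase, were called against the others (0.54 ± 0.13 and 0.48 ± 0.14), but not without library 2 (adjusted p = 0.111 and 0.154), and Pdia6 not without library 3 (0.143) or library 4 (0.0740). Of 10 heat shock genes, which answer misfolding in the cytosol, 0 were called against the others by limma, the only tool run, and 2 had an unadjusted p below 0.05. Against Ccl3/Ccl4-low cells 1 was higher and 2 lower, namely Hspa4 (-0.60 ± 0.13) and Dnaja1 (-0.41 ± 0.073), both cytosolic chaperones. Hspa4l, a relative of Hspa4, stood apart from it with 0.933, 1.04, 0.944 and 1.11 in members and 0.521, 0.489, 0.348 and 0.437 in Ccl3/Ccl4-low cells (1.02 ± 0.11, adjusted p = 1.88e-07).

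Most tested genes of hypoxia and of glycolysis were higher in members. Of 18 hypoxia genes tested, 12 were higher and 0 lower than in the others, and 14 were higher and 1 lower than in Ccl3/Ccl4-low cells (median 0.55). Hilpda, a lipid droplet protein induced by HIF, had 24.7, 27.2, 21.7 and 31.4 in members and 13.3, 16.2, 11.1 and 17.2 in Ccl3/Ccl4-low cells (0.86 ± 0.055, adjusted p = 3.79e-11). Ero1l, an ER oxidase induced by hypoxia, had 9.81, 8.27, 7.23 and 9.28 against 5.61, 5.14, 3.61 and 5.07 (0.83 ± 0.064), and Ndrg1, a further hypoxia gene, 1.47, 2.71, 1.57 and 1.97 against 1.16, 1.47, 0.885 and 0.874 (0.75 ± 0.10). The groups were apart for Hilpda and Ero1l, while for Ndrg1 the highest Ccl3/Ccl4-low level reached the lowest member level. Of 17 glycolysis genes, 10 were higher and 0 lower than in the others, and 15 were higher and 0 lower than in Ccl3/Ccl4-low cells (median 0.41). Hk2, the hexokinase of glucose-hungry cells, had 4.06, 5.69, 3.94 and 4.28 in members and 2.49, 3.18, 1.99 and 1.99 in Ccl3/Ccl4-low cells (0.88 ± 0.074, adjusted p = 3.96e-09). Pfkfb3, which raises the activator of phosphofructokinase, was higher by 0.73 ± 0.085 and Gapdh by 0.45 ± 0.051. Gapdh levels were 42.5, 38.4, 36.9 and 40.5 in members and 30.3, 29.6, 26.1 and 29.7 in Ccl3/Ccl4-low cells.

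Among 16 antioxidant and iron genes, 5 were higher and 2 lower in both comparisons. Hmox1, heme oxygenase 1, had 9.58, 8.43, 8.27 and 10.0 in members and 4.48, 4.68, 3.52 and 4.82 in Ccl3/Ccl4-low cells (1.04 ± 0.066, adjusted p = 3.79e-11). Fth1, the ferritin heavy chain that stores iron, had 292, 245, 235 and 302 against 191, 165, 143 and 178 (0.67 ± 0.049). Sod2, the mitochondrial superoxide dismutase, was higher by 0.82 ± 0.086. Of 17 survival and death genes, 5 were higher and 0 lower than in the others and 10 higher and 0 lower than in Ccl3/Ccl4-low cells (median 0.42). They act in both directions: Cflar, the inhibitor of caspase 8, was higher by 1.01 ± 0.095 and the death effector Bax by 0.60 ± 0.10. Cflar levels were 2.11, 1.69, 1.51 and 1.77 in members and 0.856, 0.679, 0.865 and 0.902 in Ccl3/Ccl4-low cells.

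Of 15 immunoregulatory genes, 4 were higher and 2 lower than in the others and 7 higher and 2 lower than in Ccl3/Ccl4-low cells. The shares over all genes were 6.59% and 6.54% against the others and 12.2% and 11.1% against Ccl3/Ccl4-low cells. Ptgs2 (cyclooxygenase 2, which makes prostaglandins) had 3.56, 4.24, 2.49 and 3.32 in members and 1.48, 2.005, 1.39 and 1.47 in Ccl3/Ccl4-low cells (1.04 ± 0.079, adjusted p = 9.27e-10). Nos2, the inducible nitric oxide synthase, had 2.08, 3.69, 2.69 and 3.404 against 1.27, 2.003, 1.19 and 1.80 (0.88 ± 0.081). Arg1, the arginase that depletes arginine, was low at 1.0, 0.879, 0.546 and 0.397, higher than the others by 0.84 ± 0.13 (adjusted p = 2.36e-04), but 0.34 (adjusted p = 0.344) without cells that had a marker of another cell type and -0.22 where cells needed 600 counts of S100a8 and S100a9. Cd274 (PD-L1), named after its values were seen, was at 2.93, 2.30, 3.55 and 3.57 in members, 1.47, 1.51, 1.75 and 1.69 in Ccl3/Ccl4-low cells (0.88 ± 0.083, adjusted p = 2.49e-08) and 3.02, 2.56, 3.12 and 3.16 in all other neutrophil-like cells (0.04 ± 0.071, adjusted p = 0.798). Icam1, an adhesion molecule, differed by 0.89 ± 0.12 from Ccl3/Ccl4-low cells and by 0.20 ± 0.099 from the others (adjusted p = 0.219).

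**Figure D2:**
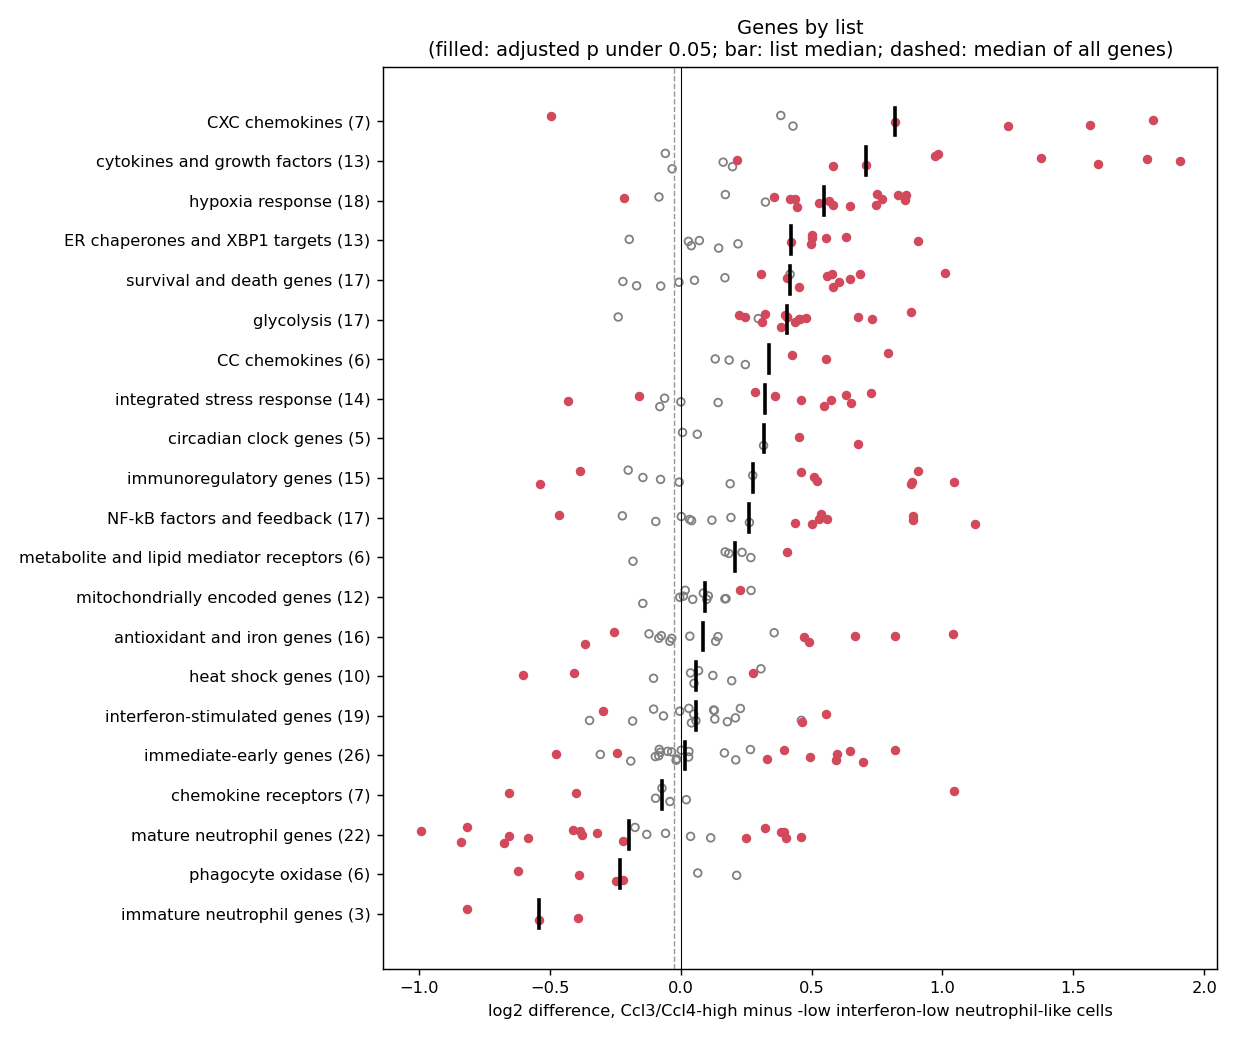
Each point is 1 gene of a list, placed by its log2 difference (level + 0.1) between Ccl3/Ccl4-high and Ccl3/Ccl4-low interferon-low neutrophil-like cells; filled points had adjusted p below 0.05, thick bars are list medians, the dashed line is the median of all 4461 genes (-0.02), the number of tested genes is in brackets, and vertical scatter within a list has no meaning. The medians run from 0.82 for CXC chemokines to -0.54 for the 3 immature neutrophil genes tested.

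Of the genes of the mature neutrophil's surface and granules, more were lower than higher. Of 22 listed, 4 were higher and 9 lower than in the others, and 6 were higher and 11 lower than in Ccl3/Ccl4-low cells (median -0.20). Ly6g, the antigen of the 1A8 and Gr-1 antibodies, had 0.471, 0.503, 0.481 and 0.510 in members, 0.664, 0.848, 0.772 and 0.757 in the others and 0.910, 1.17, 1.14 and 1.11 in Ccl3/Ccl4-low cells. No member level reached either set (-0.54 ± 0.096, adjusted p = 6.62e-04, and -0.99 ± 0.10, adjusted p = 9.58e-08). Lrg1, a leucine-rich glycoprotein of neutrophil granules, had 4.20, 4.95, 4.77 and 3.72 against 7.67, 7.35, 8.31 and 7.90 in Ccl3/Ccl4-low cells (-0.82 ± 0.071, adjusted p = 7.40e-09). Cxcr2, the receptor for the CXC chemokines above, had 2.20, 2.93, 3.02 and 2.48 against 4.10, 3.97, 4.39 and 4.41 (-0.66 ± 0.077, adjusted p = 8.12e-07). Ccrl2, a receptor that binds chemerin without signalling, was the 1 of 7 chemokine receptors called higher, with 19.3, 18.6, 17.6 and 22.9 against 10.5, 10.6, 7.22 and 9.78 (1.04 ± 0.069). Of those 7, 2 were lower, Cxcr2 and Ccr2 (-0.40 ± 0.14, adjusted p = 0.0382). Over all genes 12.2% were higher and 11.1% lower than in Ccl3/Ccl4-low cells. Pglyrp1 (a granule peptidoglycan receptor), Selplg (the selectin ligand PSGL-1), Itgam (CD11b) and Fpr1 (the formyl peptide receptor) are named after their values were seen. Pglyrp1 and Selplg were lower than in Ccl3/Ccl4-low cells by -0.84 ± 0.086 and -0.58 ± 0.093, while Itgam and Fpr1 were higher by 0.40 ± 0.075 and 0.38 ± 0.083. Mmp8, the neutrophil collagenase, was called higher than in the others (0.39 ± 0.080), but not against Ccl3/Ccl4-low cells (0.04 ± 0.070), and was -0.04 with the interferon criterion left out. The 3 immature neutrophil genes with a level to test were all lower than in Ccl3/Ccl4-low cells, among them Cd177 (-0.82 ± 0.11), a neutrophil surface antigen, and Lcn2 (-0.39 ± 0.062), lipocalin 2 of the granules, while 0 of 2 were called against the others. Of 6 genes of the phagocyte oxidase, which makes superoxide, 2 were lower and 0 higher than in the others and 4 lower and 0 higher than in Ccl3/Ccl4-low cells. Its regulator Rac2 had 3.08, 3.70, 3.84 and 3.29 in members and 5.56, 5.43, 5.36 and 5.19 in Ccl3/Ccl4-low cells (-0.62 ± 0.070, adjusted p = 4.06e-07).

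The genes of largest difference by the naming rule added secreted and signalling proteins. F10, coagulation factor X, had 7.20, 5.63, 5.81 and 7.29 in members and 2.17, 2.88, 2.22 and 2.92 in Ccl3/Ccl4-low cells (1.32 ± 0.085, adjusted p = 4.54e-11). Olfm4, a granule glycoprotein of a neutrophil subset, had 1.20, 0.788, 0.583 and 1.40 against 0.596, 0.453, 0.332 and 0.450 (0.92 ± 0.12), and its lowest member level lay just below the highest Ccl3/Ccl4-low level. Impa2, an inositol monophosphatase, had 1.76, 1.64, 1.34 and 1.97 against 0.872, 1.01, 0.615 and 0.811 (0.95 ± 0.096), and Thbs1, the matrix protein thrombospondin 1, was higher by 0.73 ± 0.14. Its difference from the other neutrophil-like cells was 0.77 ± 0.13, but 0.29 (adjusted p = 0.591) where cells needed 600 counts of S100a8 and S100a9. On the lower side, Xpc, a DNA damage sensor, had 0.0420, 0.103, 0.139 and 0.0728 against 0.170, 0.283, 0.373 and 0.308 (-1.02 ± 0.14). Stk17b, a kinase of the death-associated family, had 1.21, 2.27, 2.09 and 1.69 against 2.90, 3.42, 3.55 and 3.63 (-0.89 ± 0.088). Ripor2, a RhoA inhibitor of neutrophil polarity, and Cytip, a cytohesin partner that limits adhesion, were lower by -0.79 ± 0.12 and -0.67 ± 0.083, and Fgl2, a fibrinogen-like protein, by -0.58 ± 0.11. Twistnb, Dmkn and I830077J02Rik were lower by -0.74 ± 0.15, -0.46 ± 0.13 and -0.58 ± 0.14, and Dmkn lost its call against the others (-0.39, adjusted p = 0.1) with those 600 counts. Twistnb differed from the others by -0.65 ± 0.13, but by -0.34 (adjusted p = 0.0764) with cells thinned to 4000 corrected counts. AW011738, Sp100 and Samhd1 had negative differences from the other neutrophil-like cells of -1.09 ± 0.13, -0.84 ± 0.085 and -0.84 ± 0.074. Sp100 and Samhd1 are known to be induced by interferon, and against the interferon-low cells their differences were -0.27 ± 0.098 and -0.29 ± 0.068.

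Interferon-stimulated genes count as used by the rule against the other neutrophil-like cells, of which 1882 failed the interferon criterion: there 21 of 23 were lower and 0 higher, which is a property of the choice. Against Ccl3/Ccl4-low cells, where both sides pass that criterion, 2 of 19 were higher and 1 lower, with a median of 0.06. Rtp4 was at 0.580, 0.461, 0.593 and 0.543 in members and 0.532, 0.415, 0.504 and 0.670 in Ccl3/Ccl4-low cells (0.04 ± 0.12, adjusted p = 0.848). Ifi47, an interferon-induced GTPase, differed by 0.13 ± 0.13 (adjusted p = 0.525).

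The clock genes were few. Ciart was a marker of the population and is not tested. Of the 5 other clock genes with a level to test, 2 were higher and 0 lower in either comparison. Bhlhe40, a clock repressor also used by activated myeloid cells, was higher by 0.40 ± 0.077 than in the others and by 0.68 ± 0.086 than in Ccl3/Ccl4-low cells. Per2, a core repressor, was called against the others (0.45 ± 0.13, adjusted p = 0.0212, and 0.0827 without library 2) and not against Ccl3/Ccl4-low cells (0.32 ± 0.14, adjusted p = 0.123). Cry1, its partner, was called against Ccl3/Ccl4-low cells (0.45 ± 0.15, adjusted p = 0.0249) and not against the others (0.39 ± 0.13, adjusted p = 0.0550). The promoter of Ciart is shown for its repeated E-boxes, the letters CACGTG that CLOCK and BMAL1 bind, given in capitals (RefSeq, GRCm38.p6, 5′ to 3′ on the gene's strand).
Ciart, chr3:95882229-95882478, minus strand: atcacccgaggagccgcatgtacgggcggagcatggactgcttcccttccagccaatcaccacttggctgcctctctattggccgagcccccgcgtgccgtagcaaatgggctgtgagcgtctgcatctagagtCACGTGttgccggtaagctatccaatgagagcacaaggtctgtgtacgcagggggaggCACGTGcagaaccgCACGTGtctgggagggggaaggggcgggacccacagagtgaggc
The 3 E-boxes begin at -116, -58 and -44. At least 1 was in 6.04% of all mouse promoter windows and at least 3 in 20 of 32536 (0.0615%). Of genes higher than in Ccl3/Ccl4-low cells 15.6% held an E-box, against 10.3% of the lower ones and 11.6% of those tested. Of 6 tested receptors for metabolites and lipid mediators beside Hcar2, 1 was higher than in Ccl3/Ccl4-low cells, the platelet-activating factor receptor Ptafr (0.41 ± 0.071), and 0 were called against the others, with 2 at an unadjusted p below 0.05 by limma. That count is near the 12.2% of all genes higher than in Ccl3/Ccl4-low cells. Of 12 mitochondrially encoded genes, 0 were called against the others by limma, with 0 at an unadjusted p below 0.05, and 1, mt-Cytb, a subunit of complex III, was higher than in Ccl3/Ccl4-low cells (0.23 ± 0.079, adjusted p = 0.0407).

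Within the interferon-low neutrophil-like cells some genes were graded with the sum of Ccl3 and Ccl4. Cells were placed by their sum of Ccl3 and Ccl4 into 0 (610 cells), 1 to 9 (504), 10 to 29 (243), 30 to 99 (228) and 100 or more (72). The last class held 11, 16, 13 and 32 cells in libraries 2 to 5, so that its levels rest on under 20 cells in 3 of them. Cxcl2 was at 95.2, 111.1, 167.7, 262.7 and 417.8 over the classes (means of 4 libraries), higher at every step in each of the 4 libraries. Fth1 went the same way, with 154.6, 186.8, 235.4, 283.7 and 329.5. In 3 of 4 libraries every step was upward for Cxcl3, Hcar2, Il1rn, F10, Csf1, Cflar, Gapdh and Sod2, and downward for Rac2, Cytip and Xpc. Hp (haptoglobin, named after its values were seen), Ripor2 and Stk17b were lower at every step in 4 of 4 libraries, Hp with 12.1, 8.61, 7.28, 4.19 and 2.38. Ly6g went from 1.16 in cells without Ccl3 and Ccl4 to 0.746 in the lowest class of members and 0.198 in the highest, and Lrg1 from 8.65 to 5.90 and 2.31, each with a step against the direction in 2 libraries. Il1a went from 0.483 to 1.56 and 3.76, though in libraries 2 and 3 the highest class had 3.36 and 1.12 after 3.91 and 2.78 in the class below. Most of the genes looked at went 1 way at every step in fewer than 3 of the 4 libraries. Il1b, Cxcl1, Spp1 and Nfkbid, for example, rose at every step in 0 of 4. In all 4 libraries they were still higher in the highest class than in cells without Ccl3 and Ccl4. These are descriptions with no test.

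**Figure D3:**
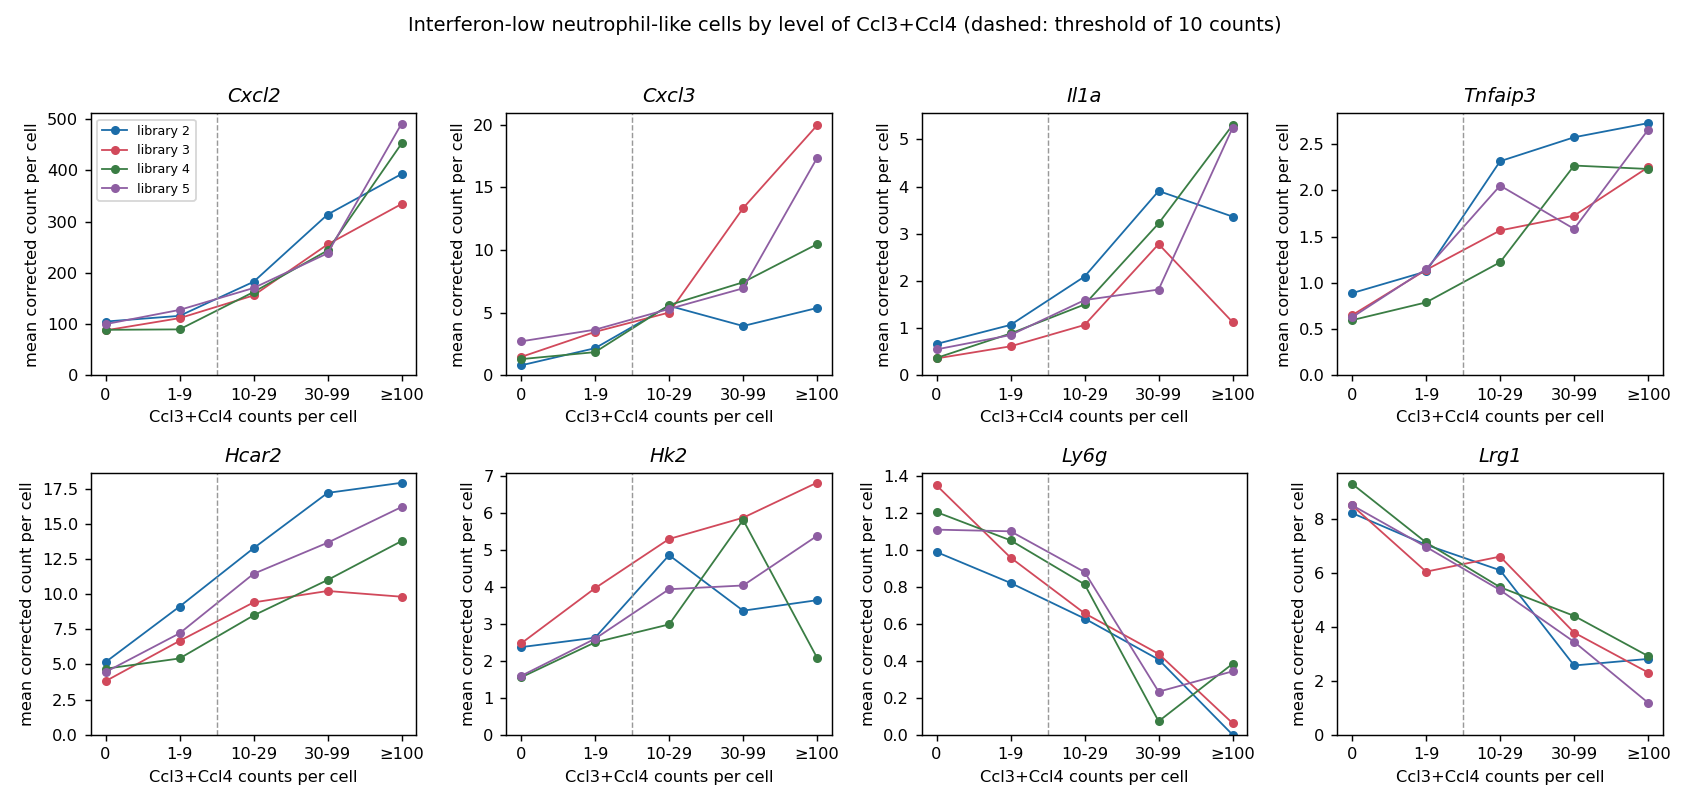
Levels of 8 genes (mean corrected count per cell) in interferon-low neutrophil-like cells grouped by their Ccl3 and Ccl4 counts, 1 line per library; cells right of the dashed line are members. Cxcl2 is higher at every step in all 4 libraries, reaching 334.4 to 491.3 in the class of 100 or more, and Ly6g and Lrg1 decline to means of 0.198 and 2.31.

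The median genes detected per cell were 1342 to 1418 in members, 1335 to 1419 in the other neutrophil-like cells and 1367 to 1469 in Ccl3/Ccl4-low cells. Members were above both in libraries 2, 3 and 4. In library 5 they were below both, with 1342 against 1419 and 1469. Corrected counts are set to a common depth by the authors' processing. An exact sign-flip test over 4 libraries cannot go below p = 0.13, so it could not show a difference here. The 7 macrophage markers named above summed to 5.341, 4.865, 5.333 and 4.563 in the others, below the members in libraries 2, 3 and 5 and above them in library 4, and of the whole macrophage list 1 of 7 genes with a level to test, Cd68, was higher in members (0.25 ± 0.068, adjusted p = 0.0207, and 0.0845 without library 2, 0.0599 without library 3 and 0.0864 without library 5). Those of monocytes summed to 0.778 to 1.48 and 0.958 to 1.27, and those of dendritic cells to 5.21 to 8.84 and 4.02 to 8.53. In members 7 of 9 T and NK cell markers in the table were at 0, Cd3e, Trbc2 and Nkg7 among them. B-cell markers summed to 0.0168 to 0.258 in members and 0.0656 to 0.658 in the others. Tumor and stromal markers summed to 0.213 to 0.364 in members and 0.113 to 0.151 in the others, mostly through Pecam1, an adhesion molecule of endothelium also found on neutrophils, with 0.185, 0.158, 0.194 and 0.318 against 0.0922, 0.0915, 0.0870 and 0.112 (0.66 ± 0.13, adjusted p = 2.03e-03). The part of other cell types in these differences was not tested further than by leaving out every cell with a defining marker of another type, 92 of 543 members (16.94%) and 546 of 2996 others (18.22%), after which 264 genes were higher and 272 lower. Of the named genes, Arg1, Tnf, Csf1, Tnip1 and Fpr1 (adjusted p = 0.082 for Fpr1, which codes for the formyl peptide receptor) then lost their call against the others, and Hspa1b, Cry1, Ltb4r1 and Cyba gained one. No doublet caller was run, and whether doublets were removed before deposit is not given in the sources used here. The 4 libraries shared 13 barcodes over 6 pairs, none of them in a member.

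The same split at 10 Ccl3 and Ccl4 counts was made in the interferon-high neutrophil-like cells, which are not members (744 cells high and 1138 low). There 441 (10.2%) of 4336 genes were higher in Ccl3/Ccl4-high cells and 575 (13.3%) lower. Of the 77 named genes called with 1 sign in both comparisons of the members, markers and the genes of the interferon list left out, 63 were called in the same direction here, 14 were not called and 0 were called in the other direction. The 77 still hold the interferon-induced genes Cxcl10, Sp100 and Samhd1, which are not on that list. Among the 63 were Cxcl3 1.09 ± 0.067, Tnf 1.20 ± 0.12, F10 1.05 ± 0.070, Hmox1 0.93 ± 0.072, Il1rn 0.89 ± 0.058, Il1a 0.89 ± 0.084, Cxcl2 0.76 ± 0.045, Hk2 0.61 ± 0.065, Ly6g -0.59 ± 0.11 and Lrg1 -0.86 ± 0.066. Among the 14 were Manf (0.20 ± 0.13, adjusted p = 0.302), Bax (0.14 ± 0.10, adjusted p = 0.341), Olfm4 (0.32 ± 0.16, adjusted p = 0.143), Thbs1 (0.29 ± 0.20, adjusted p = 0.308) and Twistnb (-0.12 ± 0.13, adjusted p = 0.536). Il1b was not called (-0.07 ± 0.046, adjusted p = 0.269). The markers of the population, which carry no test, were also higher in these Ccl3/Ccl4-high cells. Their differences were 0.86 for Hcar2, 0.84 for Ciart, 0.39 for Klf2, 0.35 for Ddit3 and 0.25 for Egr1, so the markers are not particular to members. Of the lists, 8 of 13 cytokines, 13 of 18 hypoxia genes, 11 of 17 glycolysis genes and 4 of 13 ER genes were higher, and 12 of 22 mature neutrophil genes and 4 of 6 oxidase genes lower. Of 7 genes of the macrophage list with a level to test, 3 were also higher and 0 lower in these Ccl3/Ccl4-high cells (median 0.29), among them Pf4 (0.85 ± 0.26, adjusted p = 0.0182) and Cd68 (0.27 ± 0.073, adjusted p = 0.00832). The 7 markers summed above were at 5.88, 5.37, 7.326 and 5.004 in high and 4.993, 4.137, 4.217 and 5.056 in low cells, and their part in the other differences was not tested. Without library 5 the total of 1016 genes called was 662.

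Monocyte/macrophage-like cells of the same libraries were split at the same 10 counts. The 272 Ccl3/Ccl4-high cells were unevenly spread, with 152, 17, 61 and 42 in libraries 2 to 5, so that library 3 gives its levels from 17 cells. There 269 (4.09%) of 6578 genes were higher and 330 (5.02%) lower, 9.11% in all, with a median of -0.12 over all genes, and the 599 called became 239, 1038, 133 and 169 without libraries 2, 3, 4 and 5. Of 13 mitochondrially encoded genes, 12 were lower and 0 higher in the Ccl3/Ccl4-high macrophages (median -0.58), a measure of cell or RNA quality whose part in the other differences was not tested. Cxcl2 was at 160, 172, 168 and 222 in Ccl3/Ccl4-high and 49.6, 41.9, 47.1 and 50.1 in -low cells (1.92 ± 0.088). Genes of neutrophils moved in both directions: of 18 mature neutrophil genes tested, 7 were higher and 2 lower in Ccl3/Ccl4-high macrophages (median 0.50). Mmp8 was higher (1.31 ± 0.19, adjusted p = 0.00262) and Lrg1 lower (-1.45 ± 0.26, adjusted p = 0.00772). Selplg (-0.49 ± 0.14) and Pglyrp1 (-0.37 ± 0.19) were not called. Lcn2 of the immature list was higher by 1.28 ± 0.26 (adjusted p = 0.0127). Of 6 monocyte markers, F13a1 (0.82 ± 0.091) and Fn1 (0.42 ± 0.11) were higher and Ccr2 (-0.45 ± 0.089) lower, and of 4 dendritic cell markers H2-Ab1 (-0.30 ± 0.079) and H2-Aa (-0.31 ± 0.085) were lower and 0 higher. The part of other cells or their RNA in these differences was not tested. Of the 77 named genes counted above, 70 had a level to test in macrophages, of which 44 were called in the same direction as in members, 26 were not called and 0 were called in the other direction. In these macrophages 13 of 19 cytokines, 10 of 17 glycolysis genes and 8 of 18 hypoxia genes were higher and 0 lower. Hcar2 was far lower than in neutrophils, at 1.46, 1.71, 1.75 and 2.21 in high cells and 0.237, 0.286, 0.192 and 0.186 in low cells. The test of the difference between the neutrophil contrast (members against the others) and the macrophage contrast called 44 (0.754%) of 5835 genes higher and 99 (1.7%) lower, 2.45% in all, and 20 to 194 genes when 1 library was left out. The lower calls include interferon-stimulated genes set by the choice, such as Rtp4 (-1.723 ± 0.217). They also include genes without a level to test in macrophages, such as AW011738 (-1.055 ± 0.2). The neutrophil side of that test is no plain high-against-low contrast, since 744 of the 2996 others were themselves Ccl3/Ccl4-high, and it gave -1.70 ± 0.32 for Cxcl1, -1.42 ± 0.25 for Cxcl3 and -1.26 ± 0.12 for Cxcl2. For Il23a, Hk2, Hmox1 and F10 no difference of contrasts was detected (-1.10 ± 0.46, 0.01 ± 0.16, -0.51 ± 0.17 and 0.12 ± 0.19, adjusted p = 0.241, 0.979, 0.144 and 0.794). The test fitted a library effect shared by both cell types, so it used the pairing within a cell type only in part. A gene not called by it need not have equal contrasts. With interferon-low cells only on both sides, a comparison chosen after seeing the data, the 143 genes fell to 19 of 5904 (0.322%), 7 (0.119%) higher and 12 (0.203%) lower, and Cxcl2 remained among them (-0.74 ± 0.13, adjusted p = 0.0220). That comparison has 110, 12, 38 and 26 Ccl3/Ccl4-high macrophages in libraries 2 to 5, and without libraries 2, 3, 4 and 5 it called 5, 42, 9 and 6 genes. Cxcl2 was called without library 3 (-0.60 ± 0.13, adjusted p = 0.0427) but not without library 2 (adjusted p = 0.0826), library 4 (0.0525) or library 5 (0.272). Cxcl1 (-0.87 ± 0.34, adjusted p = 0.308) and Cxcl3 (-0.85 ± 0.28, adjusted p = 0.229) were no longer called. Ly6g, at 0 in Ccl3/Ccl4-high and at most 0.0105 in -low macrophages of any library, has no contrast there to compare.

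**Figure D4:**
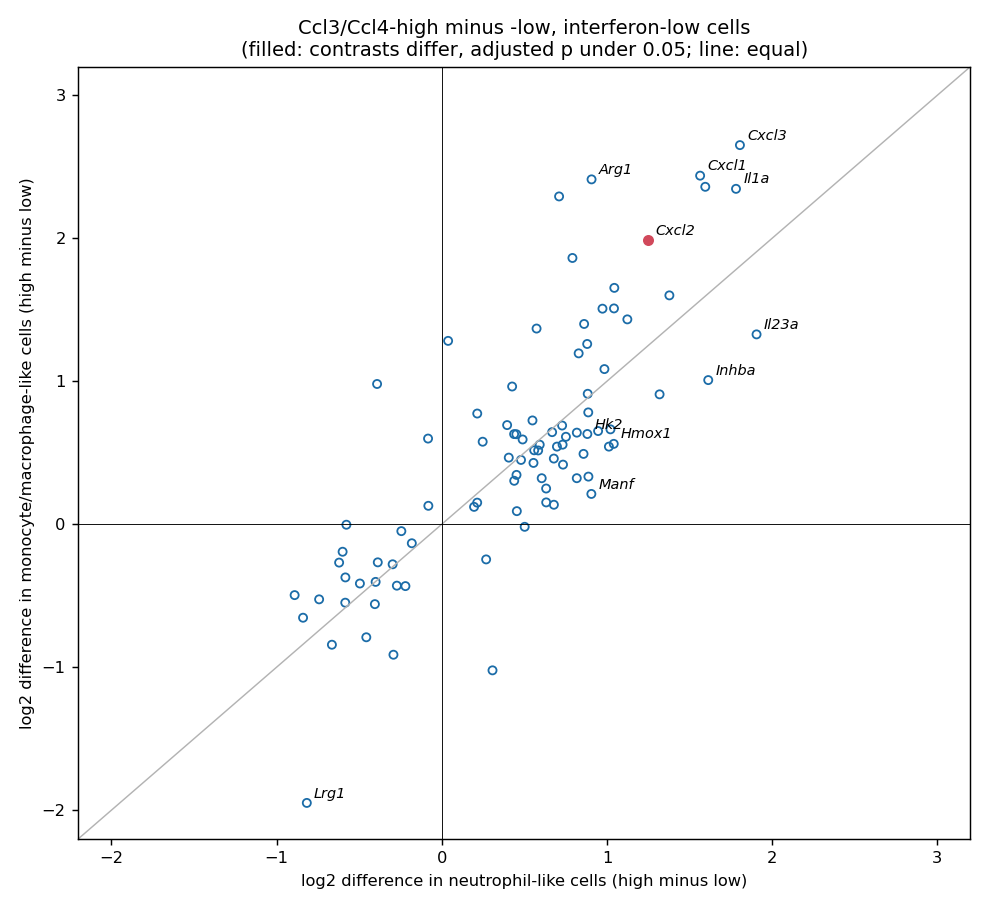
Log2 difference (level + 0.1) between Ccl3/Ccl4-high and -low interferon-low cells, neutrophil-like cells on the horizontal and monocyte/macrophage-like cells on the vertical axis, for named genes with a level to test in both cell types. The markers of the population and genes named only through the interferon, mitochondrial or other cell type lists are left out. The filled point, Cxcl2, is the one whose 2 differences differ at adjusted p below 0.05, a call that was lost without library 2, 4 or 5, and it lies above the line of equality with 1.25 in neutrophils and 1.98 in macrophages.

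The Mo-MF cultures, made from bone marrow monocytes in medium conditioned by 4T1.2 cells, held 1 such neutrophil. Of 4846 and 5389 cells in their 2 libraries, 11 and 9 were neutrophil-like and 0 and 1 met every criterion, too few for a comparison. Their neutrophil-like cells had mean levels of 17.4 and 19.9 for Cxcl2 and 0.455 and 0.111 for Hcar2, with no test.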

How the data were processed

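Single cells were profiled with the 10x Genomics 3′ kit, and per the labels the submitters' processing notes name Cell Ranger and STAR for such data and the mm10 build. The authors kept cells with at least 1000 detected genes, corrected counts with SCTransform in Seurat, and deposited natural log values, ln(corrected count + 1), which were turned back into whole corrected counts here (tolerance 0.01). Correction brings cells to a shared depth, so the sequencing depth of a library is not shown, and no count model was used. Levels were averaged per library and population, and log2(level + 0.1) was fitted with limma 3.58.1 (R 4.3.3) with library as a block, over genes with a mean of at least 0.1, the 13 genes of the rule left out. Both populations of a library come from the same sample, which makes each library a pair: the deviations of the paired populations correlated at 0.2805, 0.4059, 0.2695 and 0.1511 in libraries 2 to 5. The p-values and SEs use limma's moderated variance, which draws the spread of each gene toward a trend over all genes tested. They thus do not measure the agreement of that gene alone across the libraries, and they cover no more than these 4 libraries. Intervals and the limit at a count of 0 cover counting error only.

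The cells, gene lists and tests were chosen with earlier results of these data known. Named genes were the 6 markers, the 13 genes of the rule, the 12 largest positive and 12 largest negative differences among genes called in both comparisons with 1 sign in 4 of 4 libraries, up to 4 genes per list by absolute difference, and 4 genes the study names for B-MF. Tnf, Csf1, Ccl2, Vegfa, Spp1, Cd274, Icam1, Pglyrp1, Selplg, Itgam, Fpr1, Il1b, Hp, Anxa4, Nfkb1, Nfkb2, Rel, Rela and Relb were added after their values were seen. Values of a few genes that the rule names are not reported here. No doublet caller was run. Tested on simulated data for the comparison with the other neutrophil-like cells, the fit recovered 97.8% of genes changed 2-fold and 60.8% of those changed 1.5-fold among 4433 genes. For the monocyte/macrophage-like cells it recovered 32.3% and 1.05% among 6625 genes. False calls were 5 (3.27% of calls) in the first and 0 in the second. The simulated noise between libraries was set by hand and not estimated from these libraries. The shares recovered hold for that noise only and do not measure the power of the real comparisons. The 10563 cells of B-MF cultures and the chromatin peaks were not used here. Alternatives were other pseudocounts, filters, scaling, thinning, thresholds of the rule, leaving out each library and a fit with no block.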

Additional observations from a re-analysis of the deposited data

Results flagged for a closer look

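Dixon's ratio of gap to range was taken over the 4 libraries for 130 named genes in members and for the share of members, 131 checks in all. In 9 of them, all genes, 1 library stood apart from the other 3, above the 95% critical value, where chance flags about 1 in 20. Library 3 was the high one for Ciart (ratio 0.981, 0.806 against 0.504 to 0.510), Cxcr1 (0.9045), Nfkbid (0.8956), Ddit4 (0.849, 1.242 against 0.3796 to 0.5099) and H2-Ab1 (0.904, 1.758 against 1.176 to 1.232), and the low one for Sp100 (0.9469). Library 4 was the low one for Klf6 (0.9385) and Ppp1r15a (0.9458), and library 2 the high one for Pf4 (0.8484, 2.101 against 0.1944 to 0.4834). Ddit4 codes for an inhibitor of mTORC1, H2-Ab1 for an MHC class II chain and Pf4 for a chemokine of platelets and macrophages. The causes were not tested.

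For 12 of 108 genes checked with a level to test in both cell types, the difference between Ccl3/Ccl4-high and other neutrophil-like cells differed from that between Ccl3/Ccl4-high and -low monocyte/macrophage-like cells, by limma's test of the difference of contrasts. The difference of contrasts (neutrophil minus macrophage, log2) was negative for Tnf (-1.753), Cxcl1 (-1.702), Cxcl3 (-1.419), Cxcl2 (-1.262), Ccrl2 (-0.9984), Hilpda (-0.8434), Il1rn (-0.795), Sp100 (-0.7693) and Il1b (-0.7072). It was positive for the mitochondrial genes mt-Nd2 (0.8449), mt-Nd3 (0.7363) and mt-Cytb (0.6525), which were lower in Ccl3/Ccl4-high macrophages (mt-Cytb -0.54). Il1b was -0.05 in neutrophils and 0.66 in macrophages. The neutrophil side of this test has 744 Ccl3/Ccl4-high cells, all interferon-high, among the others, and library 3 has 17 Ccl3/Ccl4-high macrophages. The fit has a library effect shared by both cell types, so it uses the pairing within a cell type only in part. With interferon-low cells only and Ccl3/Ccl4-high against -low on both sides, Cxcl2 was the only one of the 12 still called (adjusted p = 0.0220, and 0.0826, 0.0427, 0.0525 and 0.272 without libraries 2, 3, 4 and 5, with 110, 12, 38 and 26 Ccl3/Ccl4-high macrophages there). The adjusted p was then 0.382 for Tnf, 0.308 for Cxcl1, 0.229 for Cxcl3, 0.399 for Ccrl2, 0.0672 for Hilpda, 0.470 for Il1rn, 0.173 for Il1b and 0.780 for Sp100, and 0.0697 for mt-Nd2 and mt-Cytb and 0.0837 for mt-Nd3.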

How the results depend on the processing

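The 291 genes higher and 289 lower than in the other neutrophil-like cells became 105 and 110 with no filter on low values (more genes tested), 123 and 149 with no replicate block, 545 and 495 against Ccl3/Ccl4-low interferon-low cells only and 757 and 917 with no interferon criterion, and 451 were higher with S100a8 and S100a9 at 100 or more. Leaving out 1 library gave 207 to 293 higher and 195 to 265 lower. The 1040 genes differing from Ccl3/Ccl4-low cells became 741 to 892 without 1 library and 695 without the block. The 1016 in interferon-high cells became 662 to 968. The 599 in monocyte/macrophage-like cells became 133 to 1038 (239, 1038, 133 and 169 without libraries 2, 3, 4 and 5) and 189 with the split at 20 counts. The 143 differences of contrasts became 20 to 194 (53, 194, 26 and 20), 258 and 38 with the split at 5 and 20, and 19 in interferon-low cells only, which became 5 to 42 (5, 42, 9 and 6). The share of 15.34% became 20.46% and 11.3% at 5 and 20 counts, 36.37% with no interferon criterion, and 14.43 to 16.06% without 1 library. Where no reason is given, the cause was not tested.

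For 130 named genes, 2274 values were computed under the alternatives: 2016 kept direction and side of the threshold, 148 lost the call, 96 gained it and 14 changed direction. Those 14 were Arg1 (-0.22) and Hspa1b (-0.68) with S100a8 and S100a9 at 600 or more, Ccl5 at a threshold of 5 (0.43) and with no interferon criterion (0.037), Mmp8 with no interferon criterion (-0.045), Il1b against interferon-low cells (0.21), and, against interferon-low cells and with no interferon criterion in turn, Lcn2 (-0.39 and -0.39), Ifi47 (0.13 and 0.063), Rtp4 (0.041 and 0.22) and Slfn5 (0.46 and 0.13).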
